A study of Mus musculus with 50 samples.

Results

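Wild-type soleus muscle taken 30 min after a bout of treadmill running was compared with wild-type soleus of rested mice, by reduced representation bisulfite sequencing (RRBS). The samples were chosen by their labels and by having counts in the table: 5 of the 6 samples labelled WT and 30 min, the sixth of which (sample 46) was not analysed here, and all 5 labelled WT and rest. These are 10 of the 50 samples of the series and of the 44 analysed here. WT mice were C57BL/6 animals that carried Dnmt3a alleles with loxP sites around exon 19 and no Cre, so that DNMT3A was intact. KO (mD3AKO) mice, used here only beside the WT values, carried the same alleles with Cre under the promoter of muscle creatine kinase. That promoter acts in muscle fibres and cardiac cells, so satellite cells and the other cells of the tissue keep the gene. All mice were 12 weeks old. The exercised mice ran for 30 min on a treadmill, and the rested mice spent 30 min on a sham treadmill. The rest group held 2 females and 3 males and the 30 min group 3 females and 2 males. Each sample was 1 library of muscle that had been frozen whole, so the levels are those of all cells of the soleus together. A shift in the share of a cell type and a change within cells cannot be told apart. The sample numbers of the rest group ran from 1 to 20 and those of the 30 min group from 31 to 44, with the same division in KO. Any difference in handling between the lower and the higher numbers cannot be told apart from exercise.

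Methylation of cytosine at CpG sites is set de novo by DNMT3A and DNMT3B, copied at replication by DNMT1 with UHRF1, and removed by dilution or by oxidation through the TET enzymes. CpG islands at active promoters are usually kept free of it, while CpGs outside islands are mostly methylated. The soleus is a slow, oxidative muscle that works in standing and running. Contraction is known to induce early response genes and regulators of mitochondria and fuel use, and the comparison asks whether methylation differs shortly after the bout. RRBS cuts DNA with MspI at CCGG, so it reads mainly CpG-rich sequence, and it cannot tell methylcytosine from hydroxymethylcytosine. Methylation is given as a level, the percent of calls at a CpG or region that were methylated. A cluster is a run of measured CpGs no more than 100 bp apart.

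The regions below are the 6 clusters of lowest p among those described further on that could be printed, and they show what such a cluster is. They come from GRCm38 (mm10), plus strand, each with 12 bases added on either side. Capitals mark the measured CpGs. The Bcl9l, Dnajb3, Gm20388 and Gm7030 regions had higher levels at 30 min than at rest, and the Jakmip1 and 2410004B18Rik regions had lower levels.
Bcl9l, chr9:44485626-44485710: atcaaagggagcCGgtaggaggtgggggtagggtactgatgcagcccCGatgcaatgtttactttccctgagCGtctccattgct
Dnajb3, chr1:88205608-88205663: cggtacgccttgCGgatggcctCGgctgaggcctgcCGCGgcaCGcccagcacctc
Jakmip1, chr5:37101606-37101704: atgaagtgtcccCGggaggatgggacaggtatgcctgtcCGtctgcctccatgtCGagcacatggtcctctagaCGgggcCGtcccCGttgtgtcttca
2410004B18Rik, chr3:145950229-145950351: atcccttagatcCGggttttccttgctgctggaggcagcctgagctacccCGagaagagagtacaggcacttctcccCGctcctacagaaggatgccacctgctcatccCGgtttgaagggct
Gm20388, chr8:121073610-121073677: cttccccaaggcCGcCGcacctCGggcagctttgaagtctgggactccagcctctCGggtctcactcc
Gm7030, chr17:36111287-36111379: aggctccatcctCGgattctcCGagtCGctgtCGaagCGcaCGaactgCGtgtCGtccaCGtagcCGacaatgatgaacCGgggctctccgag
Bcl9l encodes a coactivator of beta-catenin in Wnt signalling, and Dnajb3 a J-domain co-chaperone of heat shock proteins. The Dnajb3 region has 5 measured CpGs in 32 bp, and Gm7030 has 11 in 69 bp.

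The total of methylation calls was 13731392 to 33095713 per sample over 205304 autosomal CpGs, with a median coverage per CpG of 50 to 129 calls. The 5 rested samples had 13731392 to 24227444 calls and the 5 exercised ones 17044972 to 33095713, a difference within the spread (exact permutation test, two-sided, p = 0.27). Of the CpGs, 141857 lay in CpG islands, 28912 in shores (within 2000 bp of an island) and 34535 in open sea. RRBS reads without molecular identifiers are not independent molecules, so limits that rest on counts cover counting error only. The 5 samples of a group are separate mice.

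The average methylation of the muscle did not differ detectably between rest and 30 min. The level averaged over CpGs was 25.5% ± 0.765 (SD, n = 5) at rest and 25.8% ± 0.947 (SD, n = 5) at 30 min. The values at rest were 26.3% in sample 1, 25.0% in 11, 24.4% in 13, 25.7% in 14 and 25.9% in 20. At 30 min they were 26.2% in sample 31, 24.1% in 32, 26.0% in 37, 25.9% in 38 and 26.6% in 44. The groups overlapped, and sample 32 lay below all the others. The difference was 0.287 percentage points, with a 95% interval from -1.01 to 1.55 obtained by inverting the exact permutation test (two-sided p = 0.627, where 5 against 5 samples allow no p under 0.00794). The pooled level, which weights each CpG by its calls, was 30.5% ± 5.85 at rest and 30.8% ± 6.42 at 30 min (SD, n = 5 each; exact permutation p = 0.952). Its spread was wide, from 20.1% to 37.3% over the 10 samples. The most covered CpG alone, on chromosome 2 at position 98666503, held 2.64% to 9.11% of a sample's calls at a level of 92.3%. Without the 333 CpGs of mean coverage over 1000 the pooled level was 26.7% ± 4.90 at rest and 27.3% ± 5.32 at 30 min (SD, n = 5 each; exact permutation p = 0.889).

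**Figure D1:**
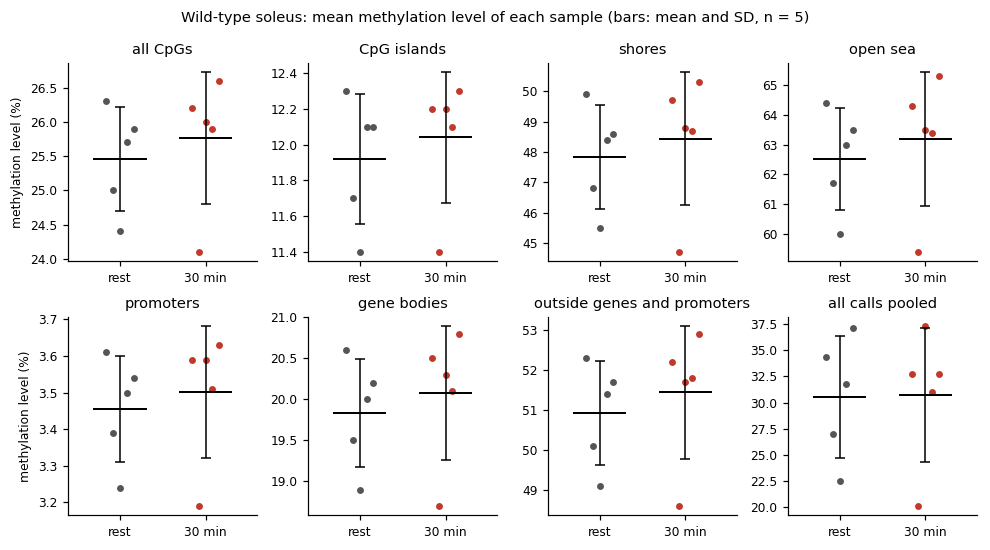
Mean methylation level (%, vertical axis, a separate range in each panel) of each of the 5 rest and 5 exercised WT samples, in 7 sets of CpGs and for all calls pooled; long bars show means and error bars the SD. The groups overlap in every panel, and sample 32 is the lowest point of the 30 min group throughout.

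No genomic context stood apart either. CpG islands had levels of 11.9% ± 0.353 at rest and 12.0% ± 0.377 at 30 min, shores 47.8% ± 1.69 and 48.4% ± 2.20, and open sea 62.5% ± 1.70 and 63.2% ± 2.26 (SD, n = 5 each). Promoters, taken as 3000 bp before to 1000 bp after a start site, had 3.46% ± 0.145 and 3.5% ± 0.179, gene bodies 19.8% ± 0.667 and 20.1% ± 0.813, and CpGs outside both 50.9% ± 1.32 and 51.4% ± 1.64. All 6 means were higher at 30 min by 0.0478 to 0.657 points, with an adjusted p of 0.675 in each (exact permutation tests, Benjamini-Hochberg over the 6 contexts). The contexts share samples and CpGs, so their common direction is not 6 observations. For promoters the 95% interval of the difference was -0.200 to 0.277 points. For open sea it was -2.32 to 3.5 points.

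Region by region, no cluster passed the test. Of 51038 clusters, 0 had an adjusted p under 0.05 between 30 min and rest (0%; edgeR quasi-likelihood test, smallest adjusted p = 1). At an unadjusted p under 0.05 there were 899 clusters with a higher level (1.76%) and 721 with a lower level (1.41%), 1620 in all against the 2551.9 that a uniform p would give. The edgeR likelihood ratio test also called 0 clusters, with 1470 higher and 1262 lower at an unadjusted p under 0.05. Those were 2732 in all, above the 2551.9 of a uniform p, so the side on which the count fell depended on the test. A quasi-binomial model and limma called 0 as well, with 2424 and 2459 at an unadjusted p under 0.05. The balance of directions moved with the model and the samples, with 1622 higher and 802 lower by the quasi-binomial model, 1250 and 1209 by limma, and by the edgeR quasi-likelihood test 843 and 851 without sample 44, 703 and 710 without sample 13, and 910 and 583 without sample 32. In 192 clusters (0.376%) every sample at 30 min lay above every sample at rest, and in 148 (0.29%) every sample lay below.

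Differences between group means were small next to the spread within groups. The median difference over clusters was 0.136 points, the middle 50% lay between -2.46 and 3.63 points, and 63.9% of clusters differed by less than 5 points. Clusters that differed by 10 points or more numbered 4539 upward and 3486 downward. Among them the groups did not overlap in 124 and 95, beside 192 higher (0.376%) and 148 lower (0.29%) of all 51038 clusters. A large difference in means makes non-overlap likelier, so the counts of 124 and 95 are a description. The SD among rested mice had a median of 8.13 points and that among exercised mice of 7.39 points, and the standard error of a difference had a median of 5.54 points. The precision depended on the level. In the 12259 clusters with a level under 5% in WT at 10 and 60 min, the median standard error was 0.635 points. In the 20353 clusters with levels of 20% to 80% it was 8.96 points, so a difference of a few points there was not detectable with 5 mice a group.

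**Figure D2:**
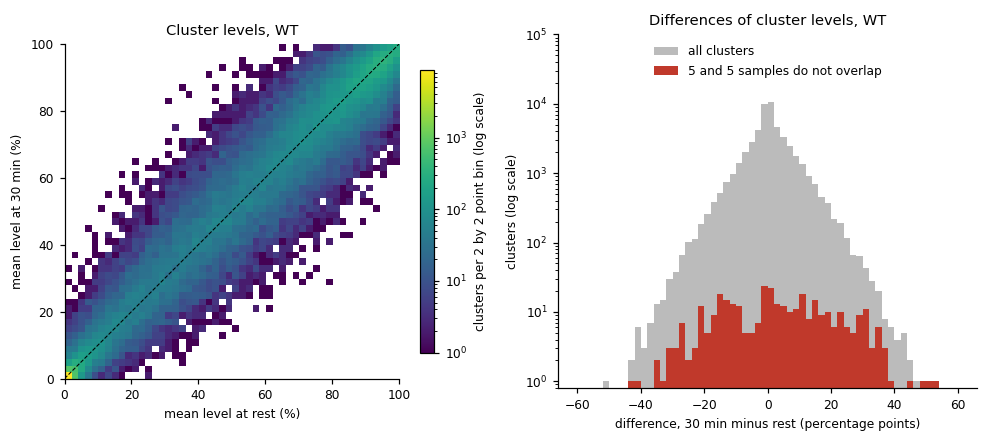
Left, mean level of each of 51038 clusters in WT at rest (horizontal, %) and at 30 min (vertical, %), with colour for the number of clusters on a log scale and a dashed line of equality. Right, number of clusters (log scale) by difference in percentage points, all in grey and those whose 5 and 5 samples do not overlap in red, which appear on either side of 0.

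On average, distances between groups were no larger than those between rested mice. Over the 36330 clusters with a level of 5% to 95% in WT at 10 and 60 min, the mean absolute difference in level was 15.0 points between 2 rested mice (10 pairs, 12.2 to 17.3), 13.8 points between 2 exercised mice (10 pairs, 10.3 to 17.6) and 14.3 points between a rested and an exercised mouse (25 pairs, 10.7 to 17.9). Each of the 5 rested samples was on average no closer to its own group than to the other, while each of the 5 exercised samples was closer to its own group, by small margins (sample 31 at 12.5 points from its own and 12.9 from the rested, sample 38 at 14.6 and 15.4). Sample 32 had the largest mean distance to the others, 16.8 points.

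The clusters described next did not pass the test. They had at least 3 CpGs and 50 calls in each of the 10 samples, no overlap between the groups, and the 8 lowest p in each direction; 90 clusters met these conditions in the higher direction and 56 in the lower. Values are given for 15 of those chosen, 8 higher and 7 lower. Non-overlap was thus a condition of the choice and carries no weight. Their adjusted p was 1 in every case by the edgeR quasi-likelihood test. In 10 of the 15 both group means lay under 5%, where a difference rests on few methylated calls, and 12 lay wholly or partly in CpG islands. All 15 had the same direction in females and males, which the condition of non-overlap makes certain, so this carries no weight either.

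The cluster near the start of Bcl9l lay in an intron 2843 bp after the start site, in a shore. The levels at rest were 1.36% in sample 1, 0.526% in 11, 0.798% in 13, 1.35% in 14 and 2.17% in 20. Those at 30 min were 18.3% in sample 31, 8.01% in 32, 16.6% in 37, 15.3% in 38 and 6.03% in 44. All 5 rested samples were near the floor, on 220 to 380 calls, and the exercised ones spread over a wide range. The means were 1.24% ± 0.633 and 12.9% ± 5.48 (SD, n = 5 each), a log2 odds ratio of 3.56 ± 0.97 (SE; unadjusted p = 0.000685). WT soleus at 10 min, at 12.0%, at 60 min, at 9.45%, lay nearer to the 30 min group, and KO at rest, at 7.03%, lay about midway between the groups.

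The Dnajb3 cluster lay in the exon of this gene on the minus strand, 146 bp after its start, and also within introns of the Ugt1a genes, the UDP-glucuronosyltransferases. Without methylated reads in 4 of 5 rested samples and at 0.723% in sample 11, it was at 8.24% in sample 31, 3.22% in 32, 6.42% in 37, 8.70% in 38 and 2.81% in 44. The means were 0.145% ± 0.323 and 5.88% ± 2.75 (SD, n = 5 each; unadjusted p = 0.00104). Here the 10 min group stayed at 0.471% ± 1.05 (SD, n = 5). In KO the order was the other way, 2.07% at rest (n = 5) and 0.221% at 30 min (n = 7), with groups that overlapped, and the difference between the genotypes' contrasts had an unadjusted p of 0.00045 and an adjusted p of 1 by the edgeR quasi-likelihood test.

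The other 6 clusters of the higher direction were, apart from Rabep1, of low level. Abca1 encodes the cholesterol efflux transporter, and its cluster covered the start site, with 0.085% ± 0.121 at rest and 1.67% ± 1.49 at 30 min. The cluster before Mex3a, an RNA-binding protein, had no methylated read in the 817 calls of the rest group, which allows a level of up to 0.367%, and 1.52% ± 1.5 at 30 min. The island cluster of Gm20388 overlapped an exon of Fendrr, a long non-coding RNA beside Foxf1, and went from 0.143% ± 0.319 to 5.76% ± 5.98, where sample 32 alone was at 15.9%. The Gm7030 cluster overlapped a pseudogene of the MHC class I region, H2-T-ps, where reads can be shared among near-identical copies, and had 0.0705% ± 0.0677 and 2.25% ± 1.84. Rabep2 and Rabep1 encode rabaptins, effectors of RAB5 in endosome fusion. The Rabep2 cluster had 0.0138% ± 0.0308 and 1.80% ± 2.82, and sample 38, at 6.81%, set most of that mean.

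The Rabep1 cluster lay in open sea upstream of the gene, at -8562 bp from its start site, and was the one of intermediate level. Its values at rest were 50.0% in sample 1, 42.2% in 11, 22.6% in 13, 48.1% in 14 and 35.1% in 20, and at 30 min 55.1% in sample 31, 64.1% in 32, 62.9% in 37, 64.3% in 38 and 56.2% in 44. The rested mice varied more than the exercised ones. The means were 39.6% ± 11.2 and 60.5% ± 4.52 (SD, n = 5 each), a difference of 20.9 points and a log2 odds ratio of 1.26 ± 0.41 (SE; unadjusted p = 0.00359). KO soleus had 52.1% at rest (n = 5) and 47.3% at 30 min (n = 7). The 34 samples of all other groups averaged 50.3%, between the 2 WT groups.

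Among the clusters of the lower direction, that of Jakmip1, a protein that binds Janus kinases and microtubules, was the one of high level. It lay in an island, in introns of Jakmip1 and Gm1043. Its values at rest were 92.1% in sample 1, 92.6% in 11, 94.0% in 13, 87.8% in 14 and 88.5% in 20, and at 30 min 80.5% in sample 31, 78.3% in 32, 84.7% in 37, 76.2% in 38 and 78.1% in 44. Sample 37 was the highest of the exercised group and lay under each rested sample. The means were 91.0% ± 2.71 and 79.5% ± 3.28 (SD, n = 5 each), a log2 odds ratio of -1.42 ± 0.41 (SE; unadjusted p = 0.00135). All 6 CpGs had the same direction, which the choice by non-overlap favours. The largest difference was that of the CpG at position 37101660 (91.1% and 64.6%). KO values were 84.7% ± 4.05 at rest (n = 5) and 78.3% ± 4.70 at 30 min (n = 7), with groups that overlapped.

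The other 6 of the lower direction were at or near 0 after exercise. In the cluster 12276 bp after the start of 2410004B18Rik, the level at rest was 3.64%, 0.429%, 2.47%, 2.91% and 1.53% in samples 1, 11, 13, 14 and 20, and 0 of 2578 calls were methylated at 30 min, which allows a level of up to 0.116%. Psme3 encodes a regulator of the proteasome, and its cluster at the start site, with 18 CpGs, had 2.21% ± 0.281 at rest and 0.275% ± 0.435 at 30 min. Sample 32 of the exercised group was at 1.05%. Of the 18 CpGs 7 had the lower mean at 30 min, while those at positions 101316156 (0% and 3.88%) and 101316437 (0% and 1.25%) had the higher. WT at 10 min had 0.487%, WT at 60 min 0.246%, KO at rest 0.630% and KO at 30 min 0.686% in this cluster. All of these means lay nearer to WT at 30 min than to WT at rest. The choice of the cluster by the separation of those WT groups favours an extreme group, so this is a description. Dpp6, an auxiliary subunit of A-type potassium channels, had 2.42% ± 1.46 at rest and 0 of 1090 calls at 30 min, which allows up to 0.275%. The remaining clusters were at the zinc finger gene Zfp369 (0.868% ± 0.618 and 0.0360% ± 0.0527), at the kelch-like gene Klhl29 (1.75% ± 0.943 and 0.297% ± 0.296) and upstream of Tmem173, at -11738 bp from the start site of this adaptor (STING) of cytosolic DNA sensing (1.59% ± 1.95 and 0.0142% ± 0.0317) (SD, n = 5 each).

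**Figure D3:**
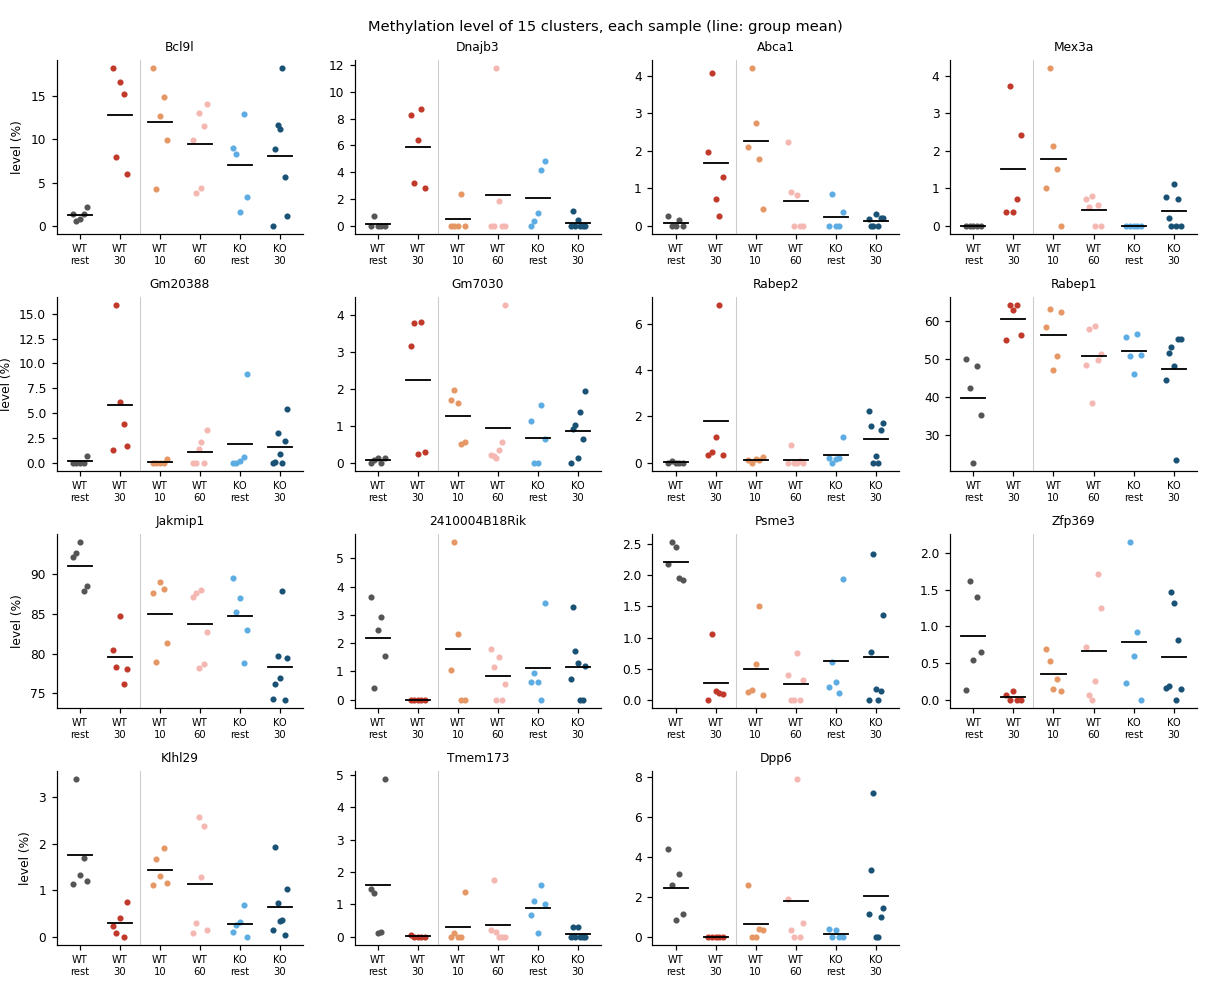
Methylation level (%, vertical axis, a separate range in each panel) of 15 clusters in each sample of WT at rest and 30 min, and, right of the grey line, of WT at 10 and 60 min and KO at rest and 30 min; black lines are group means. The non-overlap of the first 2 groups was a condition of choice, and the KO groups overlap in all 15.

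In KO muscle, with other mice, the same contrast of 30 min with rest pointed the same way in 4 of the 8 higher and 3 of the 7 lower clusters, and the KO groups overlapped in all 15. Over all 51038 clusters the difference between the KO and WT contrasts was called in 0 (edgeR quasi-likelihood test; 1653 at an unadjusted p under 0.05). The likelihood ratio test called 0 with 2699, and the quasi-binomial model 0 with 2807. For the 15, this difference had an unadjusted p under 0.05 in 10 and an adjusted p under 0.05 in 0. These 15 were chosen on the WT contrast that enters it. Across the 13207 clusters with 50 calls or more in every sample and a level of 5% to 95%, the WT and KO differences had a Pearson r of -0.0212 and a Spearman rho of -0.0192, and 49% had the same sign. This is a description over clusters, which share libraries and are not independent. The mean of the 34 other samples lay between the 2 WT groups in all 15 clusters. The choice of clusters by the separation of those 2 groups favours this, so it is a description.

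The 10 min group carried sample numbers of the same range as the 30 min group, so it gives a comparison within that range of numbers. Between WT at 30 and at 10 min, 0 of 51038 clusters were called (edgeR quasi-likelihood test; 2052 at an unadjusted p under 0.05). The likelihood ratio test called 8, of which 1 was higher and 7 were lower at 30 min, and the quasi-binomial model called 0. Among the 15 clusters, 6 had an unadjusted p under 0.05 in this comparison. They were chosen for the values of the same 30 min samples, which favours a low p here, so this count is a description. By the edgeR quasi-likelihood test, the Dnajb3 cluster (5.88% against 0.471%, unadjusted p = 0.00809), the Gm20388 cluster (5.76% against 0.0806%, unadjusted p = 0.00437) and the Klhl29 cluster (0.297% against 1.44%, unadjusted p = 0.00612) had the lowest p, all with an adjusted p of 1. Bcl9l differed little, at 12.9% and 12.0%.

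Summed over promoters, 0 of 9761 passed the test (0%; edgeR quasi-likelihood test, smallest adjusted p = 0.875). An unadjusted p under 0.05 was found in 206 that were higher (2.11%) and 159 that were lower (1.63%). The groups did not overlap in 45 higher (0.461%) and 31 lower (0.318%). The likelihood ratio test, the quasi-binomial model and limma called 0. At an unadjusted p under 0.05 they had 310 higher and 262 lower, 205 and 223, and 205 and 297, so the last 2 turned the balance of directions. By the same conditions as for clusters the Dnajb3, Mex3a, Psme3 and Zfp369 promoters came up again, each on the same CpGs as its cluster. Egr3, an immediate early transcription factor, had 12 measured CpGs over 2869 bp around its start on chromosome 14. Its promoter level was 0%, 0.257%, 0.0599%, 0.189% and 0.127% in rested samples 1, 11, 13, 14 and 20, and 2.37%, 2.21%, 2.89%, 1.00% and 0.419% in exercised samples 31, 32, 37, 38 and 44. All 12 CpGs had the higher mean at 30 min, which the choice by non-overlap favours. The means were 0.126% ± 0.102 and 1.78% ± 1.03 (SD, n = 5 each), a log2 odds ratio of 3.75 ± 1.15 (SE; unadjusted p = 0.00215, adjusted p = 1). The WT samples at 10 min had 0.694% and those at 60 min 1.25%. KO had 0.490% at rest (n = 5) and 0.610% at 30 min (n = 7), with groups that overlapped. The Bend4 promoter had 2.14% ± 2.37 and 0.0786% ± 0.176.

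Of 12391 gene bodies, 0 were called (0%; edgeR quasi-likelihood test, smallest adjusted p = 1), with 259 higher (2.09%) and 189 lower (1.53%) at an unadjusted p under 0.05. The groups did not overlap in 43 higher (0.347%) and 43 lower (0.347%). The likelihood ratio test, the quasi-binomial model and limma called 0. At an unadjusted p under 0.05 they had 349 higher and 267 lower, 373 and 179, and 255 and 286. Slc16a1, the lactate and pyruvate transporter MCT1, had no methylated call among 3559 in the rest group at its 9 CpGs, which allows up to 0.0843%, and 0.862%, 0.599%, 0.567%, 0.160% and 2.49% in samples 31, 32, 37, 38 and 44. The Gtpbp3 gene body, of an enzyme that modifies mitochondrial tRNA, had 0.614% ± 0.745 and 5.34% ± 1.42, at 5 CpGs that also lay in part over Plvap. Rab1a, a GTPase of transport from the endoplasmic reticulum to the Golgi, had 0.0196% ± 0.0437 and 1.96% ± 1.64. In the lower direction, Ndufb8, a subunit of respiratory complex I, had 2.93% ± 2.76 and 0.0909% ± 0.0840, and Tex264, a receptor for autophagy of the endoplasmic reticulum, had 4.53% ± 2.30 and 1.70% ± 0.719 over 29 CpGs (SD, n = 5 each). The measured CpGs of Slc16a1, Rab1a and Ndufb8 lay in islands centred 344, 204 and 208 bp after the start sites. Their values are therefore those of the start of the gene and not of its further length.

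At the resolution of the CpG, 0 of 205304 were called (0%; edgeR quasi-likelihood test, smallest adjusted p = 0.33; quasi-binomial model 0 called, smallest adjusted p = 0.209), with 3292 higher (1.6%) and 3445 lower (1.68%) at an unadjusted p under 0.05. The quasi-binomial model gave 12791. The CpG of lowest p, at position 21346944 of chromosome 19 between genes, was at 100% in each of the 5 rested samples and at 91.0%, 87.5%, 91.6%, 89.0% and 95% in samples 31, 32, 37, 38 and 44. WT at 10 min had 91.0%, WT at 60 min 93.2%, KO at rest 89.6% and KO at 30 min 87.7%, all nearer to WT at 30 min than to WT at rest. This CpG and the next one were chosen by a low p between rested and 30 min WT mice. That choice favours an extreme group, so the order of the groups is a description. The CpG at position 57292201 of chromosome 10, in the processed pseudogene Gm7001, showed the same layout: 0.161% ± 0.361 in rested WT, 16.1% ± 4.16 at 30 min, and 9.40% to 14.8% as means of WT at 10 and 60 min and of KO at rest and 30 min. A CpG 151 bp before Sike1, an inhibitor of the kinase IKK-epsilon, had 0 of 701 calls at rest (up to 0.428%) and 12.0% ± 7.94 at 30 min, but 0% in sample 44. A CpG in an intron of the brain transcription factor gene Tbr1 had 12.6% ± 8.34 at rest and 0 of 627 calls at 30 min (up to 0.478%).

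The genes that earlier work ties to exercise in muscle showed no difference that passed the test. Of 9 such genes, 5 had a measured promoter and 1 more, Atf3, a measured gene body. Ppargc1a, Pdk4 and Ppard had no measured CpG assigned to either and were not analysed here. Of the 5 promoters 0 were called and 0 had an unadjusted p under 0.05 by the edgeR quasi-likelihood test, and 1, Tfam, had one by the quasi-binomial model. Tfam, the transcription factor of the mitochondrial genome, had promoter levels of 0%, 0%, 0%, 2.04% and 0% at rest in samples 1, 11, 13, 14 and 20, and 0%, 5.10%, 0%, 13.0% and 0.905% at 30 min in samples 31, 32, 37, 38 and 44. Samples 38 and 32 held most of this, and the groups overlapped (log2 odds ratio 2.90 ± 1.53 (SE), unadjusted p = 0.0655, adjusted p = 1, edgeR quasi-likelihood test). Cs, citrate synthase, had 1.24% ± 1.52 and 0.232% ± 0.438. Mef2a, a muscle transcription factor, had 0.360% ± 0.390 and 0.885% ± 0.490. Nr4a3, a nuclear receptor induced by contraction, had 0.542% ± 0.552 and 0.586% ± 0.579, and Hk2, hexokinase, 0.943% ± 0.912 and 0.694% ± 0.375 (SD, n = 5 each). The Atf3 gene body, a stress-induced transcription factor, had 8.65% ± 1.77 and 10.2% ± 2.47 over 37 CpGs (unadjusted p = 0.318).

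Among 31 early response genes, 25 promoters were measured. Of these, 0 were called, 2 were higher and 0 lower at an unadjusted p under 0.05 (edgeR quasi-likelihood test), beside 2.11% higher and 1.63% lower of all promoters. The median difference was 0.0064 points, beside 0.0133 points over all 9761 promoters. The 2 were Egr3, given above, and Gadd45g, a stress sensor of the GADD45 family. Its promoter had 6.31%, 8.90%, 8.01%, 10.7% and 5.67% in rested samples 1, 11, 13, 14 and 20, and 14.1%, 15.4%, 14.9%, 43.6% and 29.2% in exercised samples 31, 32, 37, 38 and 44. Every exercised sample lay above every rested one, with 38 and 44 far above the other exercised samples. The means were 7.91% ± 2.01 and 23.4% ± 12.9 (SD, n = 5 each), a log2 odds ratio of 1.71 ± 0.79 (SE; edgeR quasi-likelihood test, unadjusted p = 0.0372, adjusted p = 1). WT at 10 min had 12.9% and at 60 min 12.2%, while KO had 23.7% at rest and 17.4% at 30 min. Zfp36, which destabilises mRNA, had 1.49% ± 2.05 and 0.702% ± 1.57, and Klf6 0.669% ± 0.851 and 0.211% ± 0.0999. Of 27 early response gene bodies 0 were called, and the 1 past an unadjusted 0.05 was Egr2, with 0.743% ± 0.308 and 0.319% ± 0.163 over 42 CpGs (SD, n = 5 each; unadjusted p = 0.0202, adjusted p = 1, edgeR quasi-likelihood test).

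Lists of muscle function lay close to the median of all promoters. In this paragraph and the following ones on gene lists, counts at an unadjusted p are from the edgeR quasi-likelihood test unless another model is named. Of 22 measured promoters of fuel use, 0 had an unadjusted p under 0.05, with a median difference of 0.0755 points. Angptl4, an inhibitor of lipoprotein lipase, had 2.75% ± 6.14 at rest, from a level of 13.7% in its highest sample, and 0% in all 5 exercised samples. Acadm, an enzyme of fatty acid oxidation, had 0.138% ± 0.165 and 0.440% ± 0.314, and Gys1, muscle glycogen synthase, 0.689% ± 0.955 and 1.78% ± 1.33. Of 18 mitochondrial regulators 0 had an unadjusted p under 0.05, and by the quasi-binomial model 2 did, Tfam in the higher and Polg in the lower direction, with a median of 0.292 points. Opa1, for fusion of the inner membrane, had 0.0578% ± 0.129 and 0.822% ± 1.28. Polg, the mitochondrial DNA polymerase, had 1.04% ± 1.43 and 0.144% ± 0.146, and Tfb1m 0.439% ± 0.419 and 0.133% ± 0.155. Of 13 contractile genes 0 had an unadjusted p under 0.05, and by the quasi-binomial model 1 did, Actn2, with a median of 0.201 points. Casq2, calsequestrin of slow fibres, had 0.349% ± 0.581 and 2.18% ± 1.43, the calcium release channel Ryr1 1.07% ± 2.21 and 1.62% ± 1.02, Actn2, of the Z-disc, 3.80% ± 1.56 and 1.31% ± 1.14, and the slow troponin C gene Tnnc1 0.938% ± 1.37 and 0.591% ± 0.897. For the 18 muscle regulators the median was 0.165 points with 0 at an unadjusted p under 0.05. Hdac5 had 0.0879% ± 0.0602 and 0.272% ± 0.281, Eya4 0.712% ± 0.962 and 0.253% ± 0.425, and Tead4 0.732% ± 0.549 and 0.423% ± 0.419 (SD, n = 5 each).

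Of 18 genes of the methylation machinery 9 promoters were measured, with a median difference of -0.379 points; 7 had the lower mean at 30 min, beside 47.6% of all promoters, and 0 were called. Uhrf1, which brings DNMT1 to replicated DNA, was the member with a promoter past an unadjusted 0.05 (unadjusted p = 0.0444, adjusted p = 1, edgeR quasi-likelihood test). Its promoter had 0.395%, 0.392%, 3.55%, 0.838% and 1.26% at rest in samples 1, 11, 13, 14 and 20, and 0.0617%, 0.288%, 0.296%, 0.280% and 0.115% at 30 min in samples 31, 32, 37, 38 and 44. The groups did not overlap, but samples 1 and 11 lay close to the highest exercised sample, and sample 13 set much of the mean at rest. Dnmt3b had 1.10% ± 1.43 and 0.0917% ± 0.205, Mbd3 0% in all rested samples and 1.04% ± 2.32, and Mbd1 0.344% ± 0.467 and 0.393% ± 0.880, where the fitted log2 odds ratio (-2.11) had the other sign. Of 15 measured gene bodies of this list, 10 had the higher mean and 5 the lower, beside 52.5% and 46.6% of all gene bodies, with a median of 0.493 points. Of these gene bodies 0 were called, and 1 was lower at an unadjusted p under 0.05 (unadjusted p = 0.0319, edgeR quasi-likelihood test). The genes are few and share libraries, so no direction is read from the counts of promoters or gene bodies.

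The promoters of secreted factors (8 measured, median 0.973 points), heat shock and redox genes (18, median -0.0452 points) and clock and glucocorticoid genes (18, median -0.148 points) had 0 members at an unadjusted p under 0.05. The quasi-binomial model had 1 secreted factor, Lif, in the higher direction and 2 clock genes, Clock and Cry2, in the lower. Angpt1, a ligand of the endothelial receptor TEK, had 0.169% ± 0.182 and 1.55% ± 1.66, Thbs1 1.40% ± 1.81 and 3.17% ± 1.64, Fndc5, the precursor of irisin, 1.51% ± 0.901 and 1.24% ± 1.57, and Il15 1.28% ± 2.16 and 0.586% ± 1.22. Nfe2l2, the antioxidant transcription factor, had 0.0708% ± 0.158 and 1.5% ± 2.08, and its inhibitor Keap1 0.463% ± 0.766 and 1.01% ± 0.942. Cryab, a small heat shock protein, was read at 1 CpG, with 27.4% ± 11.6 and 12.5% ± 13.0, and Hmox1 also at 1 CpG, with 0.357% ± 0.799 and 0%. The clock genes Per1 (0.0719% ± 0.161 and 1.84% ± 3.96) and Per3 (0.806% ± 1.80 and 3.17% ± 4.45) had the higher means at 30 min. Clock (2.29% ± 2.63 and 0.716% ± 1.37) and Cry2 (3.05% ± 3.09 and 0.552% ± 0.563) had the lower (SD, n = 5 each).

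**Figure D4:**
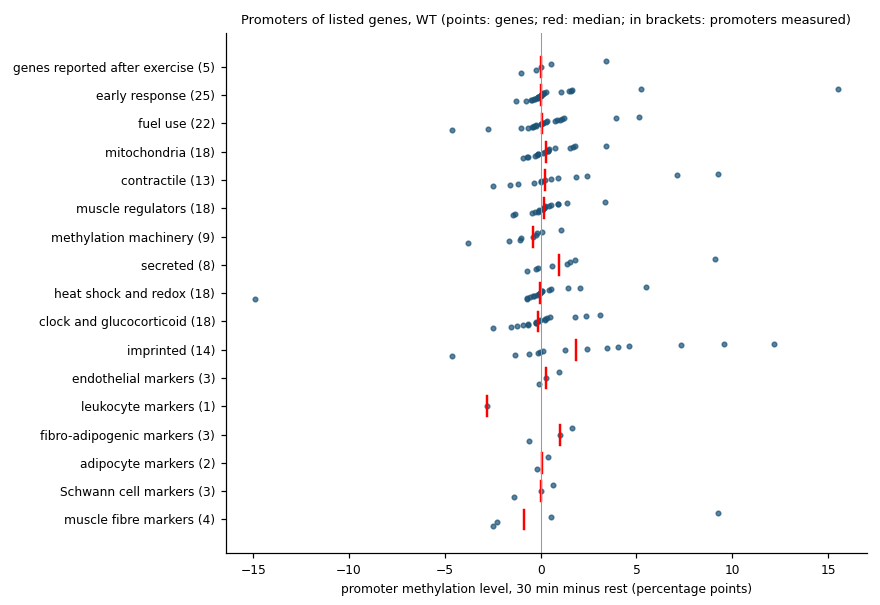
Difference in promoter methylation, WT 30 min minus rest, in percentage points (horizontal) for each measured gene of 17 lists; a red bar marks each list's median. Most genes lie within 5 points of 0, Gadd45g of the early response list is at 15.5 points and Cryab of the heat shock list at -14.9 points.

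Imprinted genes are expressed from 1 parental copy and carry methylation on 1 copy at their control regions. Of 32 listed genes 14 promoters and 15 gene bodies were measured, and the promoters ranged from 0% to 98.4% at rest. The Usp29 gene body stood at 52.5%, 53.2%, 50.6%, 49.0% and 48.0% in the rested samples and at 50.2%, 39.6%, 54.2%, 54.4% and 42.0% in the exercised ones. The groups overlapped, and samples 32 and 44 were the low ones. Median differences were 1.86 points over the promoters and 0.424 points over the gene bodies, with 0 called. Among promoters the lowest p were those of Rasgrf1 (0.416% ± 0.629 and 3.87% ± 3.55) and Cdkn1c (24.1% ± 11.8 and 31.4% ± 4.22) in the higher direction, and of Magel2 (29.8% ± 4.26 and 25.2% ± 9.83) and Igf2 (98.4% ± 2.89 and 97.8% ± 5.03) in the lower, by the difference of means. For Igf2 the fitted log2 odds ratio, 0.54, had the other sign. The Plagl1 gene body, of a zinc finger protein that restrains growth, had 26.6% ± 9.76 and 40.0% ± 9.49 (SD, n = 5 each; edgeR quasi-likelihood test, unadjusted p = 0.0481, adjusted p = 1).

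Markers of the cell types that a soleus holds gave little to judge its makeup by. Of 12 muscle fibre markers 4 promoters were measured, with levels at rest of 1.07% to 12.1%, and 9 gene bodies. The other lists had 1 to 3 measured promoters each: 3 endothelial (at rest 1.14% to 16.5%), 1 leukocyte (Csf1r, 64.0%), 3 fibro-adipogenic (0% to 59.1%), 2 adipocyte (0.432% to 0.967%) and 3 Schwann cell (0% to 7.47%). None of these promoters was called or had an unadjusted p under 0.05, and by the quasi-binomial model 1 had, Actn2, in the lower direction. Acta1, skeletal actin, was read at 1 CpG with 12.1% ± 7.25 and 21.3% ± 8.01, and Des, desmin, at 1 CpG with 2.29% ± 5.11 and 0%. For Flt1 the values were 3.34% ± 1.88 and 4.28% ± 1.63, for Cldn5 16.5% ± 9.90 and 16.8% ± 7.33, and for Kdr 1.14% ± 1.41 and 1.06% ± 1.18. Csf1r had 64.0% ± 9.52 and 61.1% ± 12.7. Pdgfra, read at 1 CpG, had 0% in the rested samples and 1.61% ± 3.61, Fn1 0.462% ± 0.447 and 1.47% ± 2.34, and Postn 59.1% ± 12.1 and 58.5% ± 11.6. Cidea had 0.967% ± 1.16 and 1.33% ± 1.24, Pparg 0.432% ± 0.429 and 0.236% ± 0.328, Mbp 1.25% ± 1.12 and 1.89% ± 1.58, and Erbb3 7.47% ± 1.33 and 6.10% ± 2.23 (SD, n = 5 each). Of the 9 muscle fibre gene bodies 6 had the higher mean at 30 min, beside 52.5% of all gene bodies, and 3 the lower. The median difference was 1.64 points, beside 0.0683 points over all gene bodies, with 0 at an unadjusted p under 0.05. All 3 lower ones are described next, but of the 6 higher ones only Des. The lower ones were Tnni1, slow troponin I (66.4% ± 4.24 and 58.1% ± 13.9), Myl2, a slow myosin light chain (13.1% ± 3.74 and 7.92% ± 2.97), and Actn2 (8.40% ± 2.70 and 5.34% ± 1.64). The Des gene body, at 3 CpGs, was at 15.3% ± 3.20 in rested and 23.8% ± 3.25 in exercised WT without overlap (SD, n = 5 each; unadjusted p = 0.117, adjusted p = 1). The means of KO at rest, at 30.4%, and at 30 min, at 29.3%, lay above both. Gene bodies of the other lists were 8 endothelial (3 higher and 5 lower), 6 leukocyte (1 and 5) and 3 fibro-adipogenic (3 and 0). There were also 4 adipocyte (1 and 3) and 4 Schwann cell ones (3 and 1). Over all gene bodies 52.5% were higher and 46.6% lower. None of these markers had an unadjusted p under 0.05, and by the quasi-binomial model 1 fibro-adipogenic gene body had, in the higher direction. The part of cell composition in the results was not tested.

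Regions that depend on DNMT3A were compared last. From the WT and KO samples at 10 and 60 min, which are other mice, 66 clusters were lower and 0 higher in KO at an adjusted p under 0.05 (edgeR quasi-likelihood test). Their mean level in WT was 30.8% ± 1.79 at rest and 31.2% ± 2.02 at 30 min (SD, n = 5 each). The rested samples had 31.6%, 30.2%, 28.0%, 32.6% and 31.6% in samples 1, 11, 13, 14 and 20, and the exercised ones 31.0%, 27.8%, 32.6%, 32.1% and 32.7% in samples 31, 32, 37, 38 and 44. The groups overlapped throughout. The difference of 0.455 points had a 95% interval from -2.33 to 3.26 (exact permutation test, two-sided, p = 0.683). KO stood at 21.5% ± 0.846 at rest (n = 5) and 20.7% ± 1.52 at 30 min (n = 7), and every WT sample at these times lay above every KO sample. Of the 66 clusters 33 had the higher level at 30 min in WT (50%, beside 52.7% of all clusters), and the median difference was 0.0353 points.

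**Figure D5:**
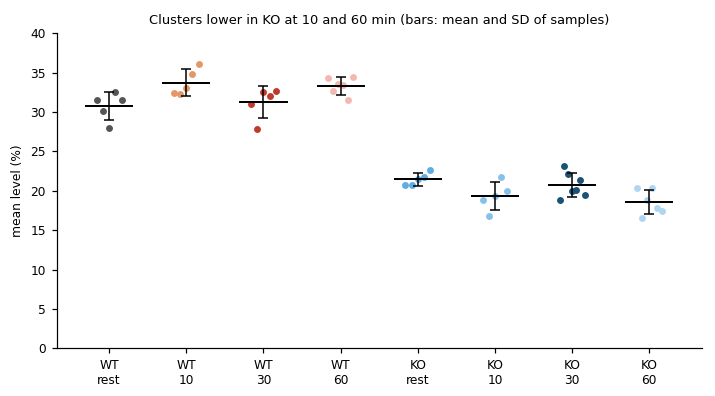
Mean methylation level (%, vertical axis from 0) over 66 clusters that were lower in KO at 10 and 60 min, for each sample of the 8 groups; long bars show means and error bars the SD. WT at rest and 30 min overlap and lie above both KO groups at the same times; WT and KO at 10 and 60 min are the samples by which the clusters were chosen.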

How the data were processed

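RRBS was done by the authors on soleus DNA cut with MspI, converted with bisulfite and read as 75-base single ends. Per the labels and methods, reads were trimmed with Trim Galore 0.4.0 (cutadapt 1.9.1), aligned to mm10 with Bismark 0.18.1, and both strands were added per CpG. Per CpG and sample the deposited table gives 2 counts, of methylated and of unmethylated calls, for CpGs that reached 8 reads in all samples, without chromosomes M, X and Y. Shallow samples had been left out by the authors, and 6 of the 50 samples have no columns in the table as used here and enter no comparison; the labels of 1 of these also conflict on genotype. The authors' assignments of CpGs to promoters, gene bodies and clusters were used.

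Counts were summed per feature and tested with edgeR 4.0.16 (quasi-likelihood test, a common dispersion, sample effects and a group effect on the methylated fraction, all 44 samples), with Benjamini-Hochberg adjustment over all features. Alternatives were the likelihood ratio test, a quasi-binomial model, limma 3.58.1, other filters and leaving out samples. Sample levels were compared by exact permutation over all arrangements (numpy 2.4.6). A group at 0 was given the level that 3 methylated calls in its total would make. Islands were windows of 200 bp with GC above 0.5 and an observed to expected CpG ratio above 0.6. Genes were located with GENCODE on GRCm38. Scripts were tested on simulated data.

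The named clusters had at least 3 CpGs, 50 calls in each of the 10 samples and no overlap of groups, and were the 8 of lowest p per direction. Promoters and gene bodies followed the same conditions with 3 per direction, and CpGs had 20 calls and 2 per direction without the condition on overlap. Of each gene list up to 2 promoters of lowest p per direction were named. Some further members with an unadjusted p under 0.05 at the gene body, the Des gene body and the imprinted Usp29 were added after their values were seen. A few features that these rules name are not reported here, were not replaced and are left out of the counts over named clusters and gene lists. The samples, lists and rules were chosen with earlier results of these data known.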

Additional observations from a re-analysis of the deposited data

Results flagged for a closer look

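In 84 groups of 5 values (the 10 samples' overall levels and the named features, at rest and at 30 min), 21 held a sample whose gap to its nearest neighbour took more than 0.71 of the group's range, where chance gives about 1 in 20, or 4.2. Several of the named features share CpGs, and many lie near 0, where few methylated calls in 1 sample can make such a gap. The rate of 1 in 20 does not hold for those groups, so the count of 21 is a description.

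Sample 32 of the 30 min group was low in 5 overall levels. It had 24.1% over all CpGs (the other 4 samples 25.9% to 26.6%), 11.4% in CpG islands (12.1% to 12.3%), 44.7% in shores (48.7% to 50.3%), 3.19% in promoters (3.51% to 3.63%) and 48.6% outside genes and promoters (51.7% to 52.9%). Its part in the results was not tested beyond leaving it out. It was also high in the Psme3 cluster, which is the Psme3 promoter, at 1.05% (0% to 0.135%), and in the Rab1a gene body at 4.82% (0.822% to 1.75%).

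Other samples lay far from their group in named features. At rest, sample 11 was at 0.723% in the Dnajb3 cluster and promoter (the others at 0%), at 0.0688% in the Rabep2 cluster (0%), at 3.40% in the Klhl29 cluster (1.14% to 1.69%), at 8.59% in the Tex264 gene body (3.10% to 3.91%) and at 0.806% in the CpG of Gm7001 (0%). Sample 20 was at 0.714% in the Gm20388 cluster (0%) and at 4.87% in the cluster before Tmem173 (0.106% to 1.48%). Sample 13 was at 6.28% in the Bend4 promoter (0.521% to 1.6%) and at 0.0978% in the Rab1a gene body (0%). At 30 min, sample 38 was at 6.81% in the Rabep2 cluster (0.321% to 1.11%) and at 0.393% in the Bend4 promoter (0%), and sample 31 at 0.0709% in the cluster before Tmem173 (0%).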

How the results depend on the processing

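The count of 0 called clusters was the same under the likelihood ratio test, the quasi-binomial model, limma, a fit of the 10 samples alone, sex in the model, clusters with levels of 5% to 95%, gaps of 50 or 200 bp between clusters and CpGs of 20 calls or more. Leaving out each sample in turn gave 0 to 1 calls. The 1 call came without rest sample 14 (edgeR quasi-likelihood test, adjusted p = 0.0337 without it and 1 with it), at 4 CpGs on chromosome 17 from 87058710 to 87058782, in open sea with no overlapping gene; sample 14 was at 30.0% there and the other rested samples at 0.86% to 15.4%, against 29.3% to 54.6% at 30 min. Those fits kept the common dispersion of the whole set. Between 30 and 10 min the likelihood ratio test called 8 clusters where the quasi-likelihood test called 0.

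The pooled level, 0.235 points higher at 30 min, moved between -1.78 and 2.91 points when a sample was left out, and turned negative without rest sample 11 (-0.66) or 13 (-1.78) or 30 min sample 31 (-0.256), 37 (-1.40) or 44 (-0.259). Without CpGs of mean coverage over 1000, an alternative added after the data were seen, it was 0.664 points. Leaving out rest sample 13 turned the level of promoters to -0.00648 points (range over samples left out -0.00648 to 0.126), of gene bodies to -0.00434 (to 0.584) and of DNMT3A-dependent clusters to -0.245 (to 1.31), and pooling over calls turned promoters to -0.598 points. No level passed the threshold under any alternative; the smallest p on leaving out a sample was 0.135. The cause of these reversals was not tested. The other levels kept their direction but not their size: without rest sample 13 and without 30 min sample 32 the unweighted level was 0.0133 and 0.692 points higher (0.287 with all), shores 0.0121 and 1.53 (0.59) and open sea 0.0305 and 1.61 (0.657). The 15 named clusters kept theirs under every alternative that gave them a value, none with an adjusted p under 0.05. They were chosen for non-overlap, so leaving out a sample could not turn their direction, and the other models used the same counts. Their constancy therefore carries no weight. Depth and 5 mice a group limit the precision, which in percentage points was lower for clusters of 20% to 80% than for those under 5%. No paired analysis was possible because sample numbers are unique.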
